A study of Rattus norvegicus with 2 samples.

Results

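The proteasome is the large protease that degrades proteins marked with ubiquitin. Its members on the array were the single-gene probe sets whose gene symbol is Psma, Psmb, Psmc, Psmd, Psmf or Psmg followed by a digit, or Psme4. The inducible subunits Psmb8, Psmb9 and Psmb10 were left out, and 1 value per gene was read from the probe set with the highest mean level. The symbols found 40 genes. One of them, Psmc3ip, encodes a cofactor of meiotic recombination and not a proteasome protein, so it was set apart. This left 39 constitutive proteasome genes of the 14217 genes measured, of which 13 encode subunits of the core particle, 9 the base and 8 the lid of the regulatory particle, 7 assembly factors and 2 other regulators. Psmb6 and Psme3, which the symbols also name, are represented only by probe sets annotated to several genes and have no value here.

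The study asked how antecedent hypoglycemia alters gene expression in the rat adrenal medulla during a later hypoglycemic episode. In the 2RH30 group, adult male Sprague-Dawley rats received intraperitoneal regular human insulin at 2 IU/kg over 3 days, which is recurrent hypoglycemia (RH). In the 2RS30 group, rats of the same kind received saline on the same schedule. Rats of both groups were fasted overnight and underwent a hyperinsulinemic-hypoglycemic clamp at 40 to 50 mg/dL glucose on day 4, so both had insulin and low glucose at the time of sampling, 30 min after the target was reached. RNA of the left adrenal medullae of 6 rats was combined into 1 pool for each group, and each pool was read on 1 Affymetrix rat expression array. With 1 array per group there is no replicate error and no test, and how far single animals differed was not measured. In pooled tissue, fewer cells of a type and less RNA per cell cannot be told apart.

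In the proteasome, a barrel of stacked rings encloses the active sites. The outer rings are made of alpha subunits (Psma genes), which gate the entrance, and the inner rings of beta subunits (Psmb genes), some of which cut peptide bonds. The regulatory particle caps the barrel. Its base holds a ring of ATPases (Psmc genes) that unfold and push in the substrate, and its lid includes the enzyme that removes the ubiquitin chain. Cells that make much secreted protein, as chromaffin cells do, also use the proteasome to remove misfolded proteins drawn back from the endoplasmic reticulum.

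Values are log2 levels as deposited, and each difference is 2RH30 minus 2RS30. The 2 arrays did not have the same spread. The standard deviation over the 31042 probe sets was 1.57 in 2RH30 and 1.28 in 2RS30, with medians of 5.51 and 5.50. The difference therefore ran with the level. Over 20 bins of probe sets ordered by mean level, its median was -0.38 in the dimmest bin and 0.49 in the brightest. For this reason a level-adjusted difference, from which the smoothed trend with level was subtracted, is given beside each deposited one. A probe set below the array median on both arrays is called dim. The array controls BioB, BioC, BioDn and CreX, whose RNA does not come from the tissue, were lower in 2RH30. On average the 6 BioB probe sets differed by -3.25, the 4 BioC by -2.63, the 2 BioDn by -1.74 and the 2 CreX by -0.51. All 9 chromaffin markers were measured and none was dim. Th, the rate-limiting enzyme of catecholamine synthesis, had a level of 11.96 in 2RH30 and 11.45 in 2RS30. Transcripts of the adrenal cortex were also read far above the array median, with Star, which brings cholesterol into mitochondria for steroid synthesis, at 12.51 in 2RH30 and 11.81 in 2RS30, so both dissected pools held cortical RNA. The 6 cortical markers measured differed by a median of 0.61 as deposited and 0.04 level-adjusted.

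Most constitutive proteasome genes had somewhat higher deposited levels in 2RH30, but the members were also brighter than most genes, and after level adjustment they were evenly split. As deposited, 29 of 39 members (74.4%) were higher in 2RH30, 9 were lower and 1 was equal, with a median difference of 0.27. Level-adjusted, 20 (51.3%) were above 0 and 19 below, with a median of 0.01. Over all 14217 genes, 56.1% were above 0 as deposited and 51.2% level-adjusted, with medians of 0.11 and 0.02. Psma5, Psma6 and Psmb5 were the 3 members (7.69%) higher by 2-fold or more, against 11.5% of all genes. A 2-fold change is the fold threshold of the study, whose results also name a P-value limit that was not applied here. No member was lower by 2-fold or more, against 9.62% of all genes. After level adjustment, 3 members (Psma5, Psma6 and Psmg1) passed 2-fold in the higher direction and 1 (Psmd7) in the lower, against 8.95% and 9.31% of all genes. On neither scale did the members pass the threshold more often than genes at large.

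**Figure D1:**
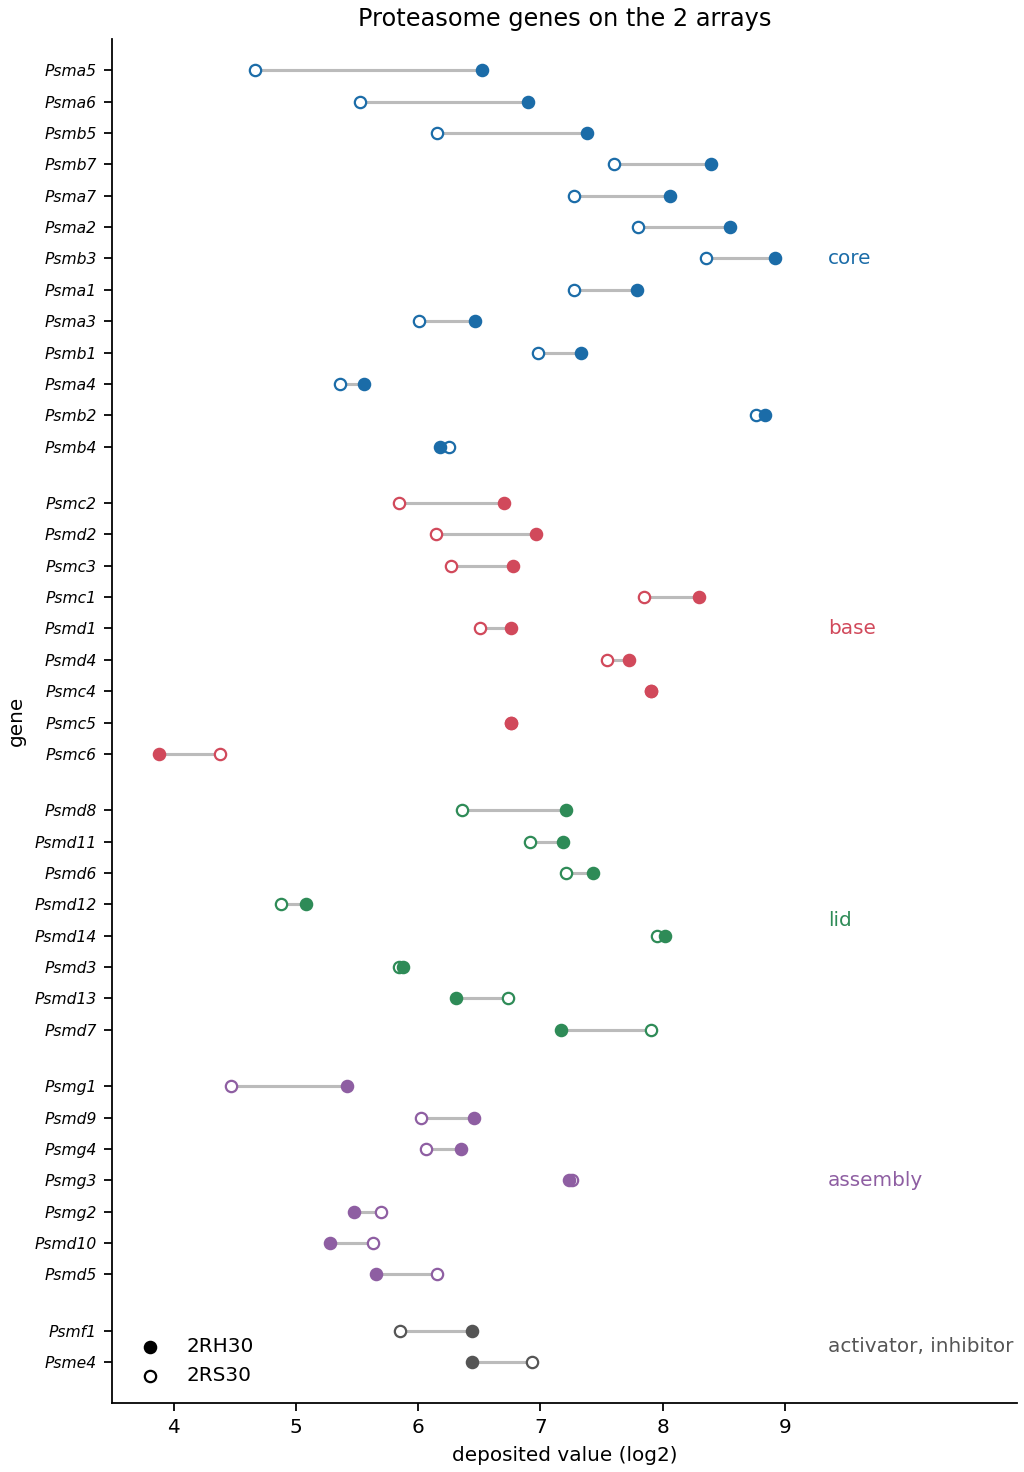
Deposited log2 level of each of the 39 constitutive proteasome genes on the 2RH30 array and the 2RS30 array, 1 pool of 6 rats each, grouped by their place in the proteasome. Psma5, Psma6 and Psmb5 have the widest gaps with 2RH30 above, and Psmd7 has the widest gap with 2RH30 below.

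The members differed less among themselves than genes at large did. The standard deviation of the level-adjusted difference was 0.57 over the 39 members and 0.79 over the 12389 genes within their range of mean levels. Other lists fell on both sides of the members, with 0.41 for substrate delivery genes and 0.24 for chromaffin markers. Regulators of proteasome gene transcription had 0.72 and inducible subunits 0.81. When the genes were split by mean level, with limits chosen after the values were seen, the standard deviation was 0.77 for the 9 members below 6 against 0.86 for the 7807 other genes there, 0.55 against 0.73 between 6 and 7, and 0.39 against 0.60 between 7 and 9. The 15 members between 6 and 7 had a median level-adjusted difference of 0.26, against -0.01 for the 3990 other genes of those levels. The 9 members below 6 had a median of -0.08, against 0.04 for the other genes, and the 15 members between 7 and 9 had -0.05, against 0.00 for 2063 other genes. The band below 6 was not matched in level, as members there reached down to 4.13 and other genes to 2.74. No chance value is attached to these descriptions, since the genes of 1 array pair are not replicates.

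**Figure D2:**
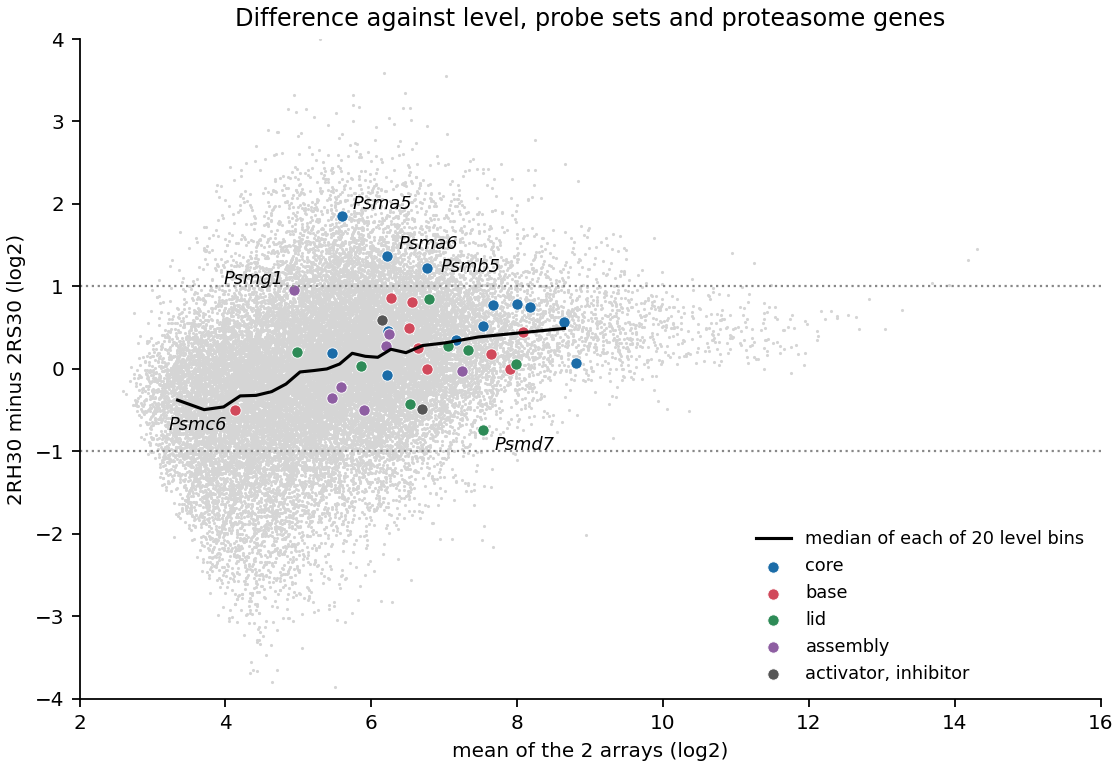
Difference between 2RH30 and 2RS30 (log2) plotted against the mean level of both arrays (log2) for all probe sets in grey and the 39 members in colour, with lines at 2-fold and the median of each of 20 level bins as a black line. The line climbs with level, and most members lie near it.

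A yardstick for single genes was taken from genes with several probe sets that are not dim. Such probe sets are annotated to the same gene and were read on the same arrays. Whether they read the same transcripts was not checked. Their level-adjusted differences had a pooled standard deviation of 0.85 for mean levels of 5 to 7 (1977 genes) and 0.64 at 7 and above (550 genes). The first value was also used for the members below 5, all of them dim, although no dim probe set entered it. This spread contains no variation between animals. Level-adjusted, 4 members lay above 0 by more than it (Psma5, Psma6, Psmb5 and Psmg1, the last of them dim) and 1 lay below (Psmd7). The remaining members lay within it on the probe set used for each.

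Of the groups, the core particle stood highest. Its 13 members had a median difference of 0.56 as deposited and 0.26 level-adjusted, with 12 above 0 as deposited and 11 level-adjusted. All 7 alpha subunits were above 0 on both scales, with medians of 0.75 and 0.28, and they stayed above 0 under the other scalings tried. Each was read by 1 single-gene probe set, so agreement between probe sets could not be checked for them. A further probe set, annotated to both Psma3 and Psma3l, was not used. Psma5 had the largest difference of all members, with a level of 6.52 in 2RH30 and 4.66 in 2RS30, a difference of 1.86 (3.62-fold) as deposited and 1.76 level-adjusted. Its level in 2RS30 was the lowest among the alpha subunits and lay below the median of that array, 5.50. Psma6 followed, with 6.90 in 2RH30 and 5.53 in 2RS30, a difference of 1.37 and 1.17 level-adjusted. The other alpha subunits were closer to the trend of the arrays. Psma7 differed by 0.78 (0.37 level-adjusted), Psma2 by 0.75 (0.28) and Psma1 by 0.52 (0.12). Psma3 differed by 0.46 (0.26 level-adjusted), and Psma4 had the smallest deposited difference of the ring, with 5.56 in 2RH30 and 5.36 in 2RS30, a difference of 0.20 (0.14).

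Among the beta subunits, only Psmb5 passed 2-fold. Psmb5 carries the chymotrypsin-like activity, the main site at which the proteasome cuts and the target of proteasome inhibitor drugs. Its brightest probe set read 7.38 in 2RH30 and 6.15 in 2RS30, a difference of 1.23, or 0.94 level-adjusted. Its other probe sets were both dim and ran the other way, one with 4.33 in 2RH30 and 5.01 in 2RS30 and the other with 3.11 in 2RH30 and 4.45 in 2RS30. The higher Psmb5 level therefore rests on 1 of 3 probe sets. Psmb7, which carries the trypsin-like activity, had 8.39 in 2RH30 and 7.60 in 2RS30, a difference of 0.79, of which 0.33 was left after level adjustment. The other beta subunits measured have no catalytic site. Psmb3 differed by 0.56 (0.06 level-adjusted) and Psmb1 by 0.35 (0.01). Psmb2 was among the brightest members, with 8.83 in 2RH30 and 8.77 in 2RS30, a difference of 0.07 as deposited and -0.44 level-adjusted. Psmb4 was the lowest of the core as deposited, with 6.18 in 2RH30 and 6.26 in 2RS30, a difference of -0.08 (-0.28 level-adjusted). The 6 beta subunits had a median of 0.46 as deposited and 0.04 level-adjusted.

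The promoters of the 3 core genes past 2-fold are shown because all subunits are needed together and their genes are known to share transcription factors. Each sequence is the 150 bases before the start of the gene on its own strand, from RefSeq on the GRCr8 assembly, at chr2:198584355-198584504 on the plus strand for Psma5, chr6:78514197-78514346 on the plus strand for Psma6 and chr15:32047380-32047529 on the minus strand for Psmb5. Capitals mark the motifs searched.
Psma5: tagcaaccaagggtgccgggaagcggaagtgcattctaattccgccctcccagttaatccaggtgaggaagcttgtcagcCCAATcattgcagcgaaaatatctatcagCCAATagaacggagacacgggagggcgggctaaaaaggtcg
Psma6: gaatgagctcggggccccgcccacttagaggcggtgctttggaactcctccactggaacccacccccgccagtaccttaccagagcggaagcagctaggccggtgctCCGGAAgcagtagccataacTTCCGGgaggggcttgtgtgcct
Psmb5: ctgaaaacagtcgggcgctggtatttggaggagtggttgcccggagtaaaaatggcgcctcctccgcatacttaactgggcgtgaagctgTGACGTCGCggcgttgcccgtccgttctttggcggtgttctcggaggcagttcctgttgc
The 3 promoters carried different motifs. Psma5 had a pair of CCAAT boxes, the element read by NF-Y. Psma6 had CCGGAA on each strand, the core of the elements read by ETS factors. Psmb5 had TGACNNNGC, the core of the antioxidant response element, which is read by the NFE2 family of factors that includes the proteasome regulators Nfe2l1 and Nfe2l2.

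Promoters reaching 250 bases before and 50 after the start were listed for 35 of the 39 members, and each motif was searched on both strands. CCGGAA was in 19 of 35 member promoters (54.3%), against 23.0% of the 13192 promoters of measured genes and 14.95% of all 33469 promoters. CCAAT was in 18 (51.4%), against 36.8% and 37.5%. TGACNNNGC was in 7 (20%), against 14.1% and 12.1%. TATAAA was in 4 (11.4%), against 8.47% and 14.2%. The 19 members with CCGGAA had a median difference of 0.27 and the 16 without it 0.32, and level-adjusted these were -0.05 and 0.07. The 7 with TGACNNNGC had a median of 0.25 and the 28 without it 0.32, and level-adjusted these were -0.01 and 0.04. With CCAAT the median was 0.44 and without it 0.25, which level-adjusted became 0.09 and -0.05, and the 4 with TATAAA had 0.26 and the 31 without it 0.43, level-adjusted -0.03 and 0.08. Whether gaps of this size exceed what groups of so few genes give was not tested. A match is a run of letters and not a shown binding site.

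The base of the regulatory particle had 7 of 9 members above 0 as deposited, with a median of 0.25, and 3 of 9 level-adjusted, with a median of -0.01. The 6 ATPases, which work as 1 ring and are present in equal numbers in the particle, spanned differences from -0.50 to 0.86. Psmc2 was the highest, with 6.70 in 2RH30 and 5.84 in 2RS30, a difference of 0.86 (0.66 level-adjusted). Psmc3 had 6.77 in 2RH30 and 6.27 in 2RS30, a difference of 0.50 (0.26). Psmc1 had 8.30 in 2RH30 and 7.85 in 2RS30, a difference of 0.45 (-0.01). Psmc5 had exactly the same level, 6.76, on both arrays, and Psmc4 read 7.90 on both with a difference of 0.0006, which put them at -0.28 and -0.44 after level adjustment. Psmc6, the lowest as deposited, was dim, with 3.88 in 2RH30 and 4.38 in 2RS30, a difference of -0.50 (-0.08). On the brightest probe set of each, no ATPase lay beyond the spread between probe sets after level adjustment. The other Psmc6 probe sets, also dim, read -1.06 and -1.74 level-adjusted, and the mean over its 3 probe sets was -0.96.

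The subunits of the base that are not ATPases hold the ubiquitin receptors. Psmd2, a scaffold that docks ubiquitin-like proteins and shuttle factors, had 6.97 in 2RH30 and 6.15 in 2RS30, a difference of 0.82 (0.57 level-adjusted). Psmd4, which binds ubiquitin chains directly, had 7.73 in 2RH30 and 7.55 in 2RS30, a difference of 0.18 (-0.23). Psmd1, the other large scaffold of the base, had 6.76 in 2RH30 and 6.51 in 2RS30, a difference of 0.25 (-0.01). Psmd2 was the one among these that stayed above 0 after level adjustment, and it lay within the spread between probe sets.

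The lid had 6 of 8 members above 0 as deposited, with a median of 0.14, and 2 of 8 level-adjusted, with a median of -0.13. Psmd8, a structural lid subunit, was the highest with 7.21 in 2RH30 and 6.36 in 2RS30, a difference of 0.85 (0.57 level-adjusted). Psmd14, the metalloprotease that cuts ubiquitin chains from the substrate, had 8.02 in 2RH30 and 7.95 in 2RS30, a difference of 0.07 (-0.39). Psmd7, the partner with which Psmd14 forms a pair in the lid, had the lowest difference of all members on both scales, with 7.17 in 2RH30 and 7.91 in 2RS30, a difference of -0.74 (-1.14). A further Psmd7 probe set that was not dim read 7.50 in 2RH30 and 6.57 in 2RS30, a difference of 0.93 (0.61), so its probe sets pointed in opposite ways. Psmd13 was lower by 0.43 with 1 probe set, at 6.31 in 2RH30 and 6.74 in 2RS30 (-0.67 level-adjusted). The other lid genes Psmd11, Psmd6, Psmd12 and Psmd3 differed by 0.03 to 0.27, and Psmd12 was dim. Level-adjusted, Psmd11 was at -0.05, Psmd6 at -0.14 and Psmd3 at -0.12, while Psmd12 was at 0.32.

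The assembly factors, chaperones that build the particle and leave it when it is complete, were lower as a group than the core, with a median of -0.02 as deposited and -0.31 level-adjusted and 3 of 7 above 0 on both scales. Psmg1, which starts the alpha ring as a pair with Psmg2, was the highest with 5.42 in 2RH30 and 4.47 in 2RS30, a difference of 0.95 (1.09 level-adjusted), although dim. Its partner Psmg2 had 5.47 in 2RH30 and 5.69 in 2RS30, a difference of -0.22 (-0.31). The other pair also lay on both sides of 0 but closer together, with Psmg3 at -0.02 (-0.38) and Psmg4 at 0.28 (0.08). Of the chaperones of the base, Psmd9 differed by 0.43 (0.23), Psmd10 by -0.35 (-0.40) and Psmd5, the lowest, by -0.50 (-0.66) with 5.65 in 2RH30 and 6.15 in 2RS30. Psmd9 was higher on both of its probe sets, which read 0.43 and 0.44.

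Psmf1, an inhibitor that binds the ends of the core, had 6.44 in 2RH30 and 5.85 in 2RS30, a difference of 0.60 (0.40 level-adjusted). Psme4, an activator that opens the core without using ATP, had 6.44 in 2RH30 and 6.93 in 2RS30, a difference of -0.49 (-0.76). A second Psme4 probe set that was not dim read 5.95 in 2RH30 and 5.68 in 2RS30, a difference of 0.27. Both values of Psme4 and that of Psmf1 were within the spread between probe sets. Psmc3ip, set apart above, had 5.86 in 2RH30 and 4.42 in 2RS30, a difference of 1.44, and 1.503 level-adjusted.

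Where a member had several probe sets, they often disagreed. The 39 members were read by 52 probe sets, 31 members by 1 each and 8 by 2 or 3. In 6 of these 8 the sign of the deposited difference was not the same on all probe sets, Psmc4 among them with a difference of 0.00 on the brightest. In Psmb5, Psmc4 and Psmd14 the opposite sign came only from dim probe sets, which the trend with level pulls down. Level-adjusted, the Psmc4 probe sets were close, at -0.44 and -0.39. How often signs differ over all genes with several probe sets was not counted. Among probe sets that were not dim, the range within a gene was 1.67 for Psmd7, 1.35 for Psmd11, 0.76 for Psme4, 0.63 for Psmd14 and 0.01 for Psmd9. The brightest Psmd11 probe set had 7.19 in 2RH30 and 6.91 in 2RS30, a difference of 0.27, and the next had 5.78 in 2RH30 and 6.86 in 2RS30, a difference of -1.07. Those of Psmd14 gave 0.07 and 0.69. Level-adjusted, these probe sets read -0.05 and -1.28 for Psmd11 and -0.39 and 0.50 for Psmd14. All 3 Psmc6 probe sets were dim and lower in 2RH30, with differences of -0.50, -1.51 and -2.19. Differences of the size seen in most members were thus no larger than those between probe sets of 1 gene.

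**Figure D3:**
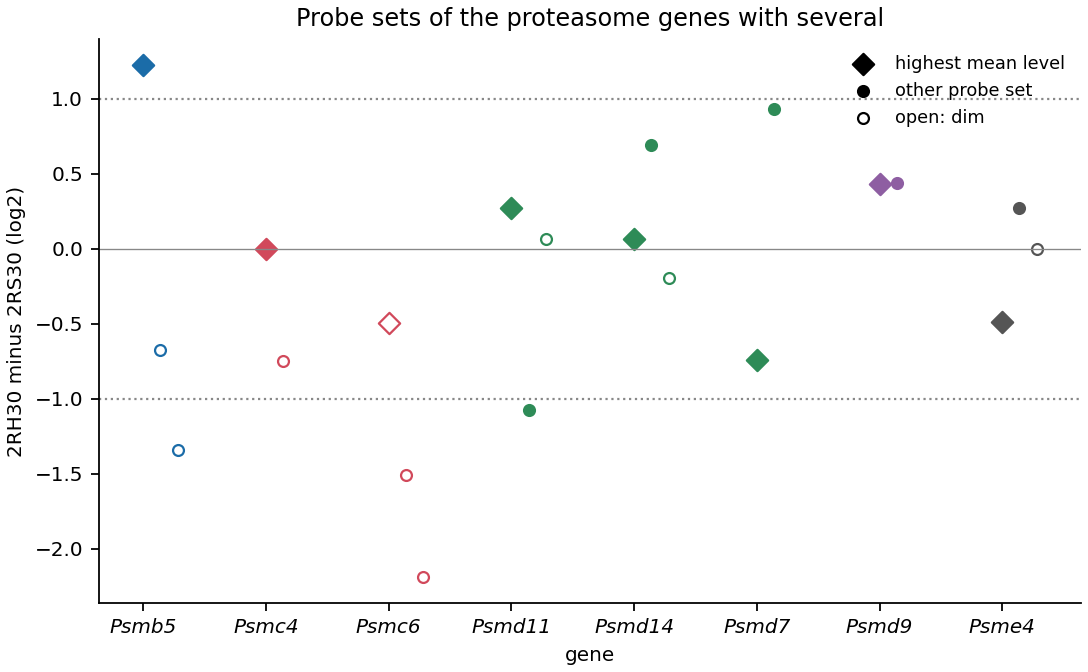
Difference between 2RH30 and 2RS30 (log2) for every probe set of the 8 members that have several, with the brightest as a diamond, the others to its right as circles and dim probe sets open. The probe sets of Psmb5, Psmd7 and Psmd11 fall on both sides of 0, those of Psmd9 coincide.

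The inducible subunits, which replace the catalytic subunits of the core or form the activator cap in cells exposed to interferon, had larger differences than most constitutive genes. Their median difference was 1.37 as deposited and 1.14 level-adjusted, against 0.27 and 0.01 for the constitutive genes, with 4 of 5 past 2-fold as deposited, against 11.5% of all genes, and 3 of 5 level-adjusted, against 8.95%. Psmb8, which takes the place of Psmb5, had 7.66 in 2RH30 and 6.09 in 2RS30, a difference of 1.57 (1.28). Psmb9, which takes the place of Psmb6, had 6.88 in 2RH30 and 5.51 in 2RS30, a difference of 1.37 (1.17). Psmb10, which takes the place of Psmb7, was the exception with 7.48 in 2RH30 and 7.74 in 2RS30, a difference of -0.26 (-0.67). Of the activator genes, Psme1 had 9.03 in 2RH30 and 7.42 in 2RS30, a difference of 1.61 (1.14), and Psme2 had 7.08 in 2RH30 and 5.89 in 2RS30, a difference of 1.19 (0.95). The other probe set of Psme1 ran the other way, with 5.51 in 2RH30 and 6.36 in 2RS30, and the mean of both was 0.38 as deposited and 0.06 level-adjusted. Leukocytes express inducible subunits without further stimulus. Over 7 markers of macrophages and leukocytes the median difference was 1.33 (1.06 level-adjusted) and 5 of 7 were above 0. Ptprc and Csf1r were lower, at -0.71 and -0.77. The linear levels of the 7 markers summed to 654 in 2RH30 and 341 in 2RS30. Those of all genes, without level adjustment as well, summed to 1.73e+06 in 2RH30 and 1.36e+06 in 2RS30. The part of leukocyte RNA in these values was not tested.

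Genes that act beside the proteasome but lie outside the symbols were also read. Of 7 further subunits, assembly and accessory genes, 6 were measured, with a median of 0.59 (0.61 level-adjusted). It was 0.28 with each gene averaged over its probe sets and 0.99 without dim probe sets. Pomp, the maturation chaperone of the core, had 7.24 in 2RH30 and 5.64 in 2RS30, a difference of 1.60 (1.37), larger than that of any member except Psma5. Adrm1, the third ubiquitin receptor of the base, had 6.69 in 2RH30 and 5.60 in 2RS30, a difference of 1.09 (0.90). Usp14, a deubiquitinase of the base, was the lowest of those not dim with 7.18 in 2RH30 and 7.38 in 2RS30, a difference of -0.20 (-0.56). Pomp passed 2-fold on both scales, Adrm1 as deposited only.

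Of the 7 genes that regulate proteasome gene transcription or proteasome import into the nucleus, the median was 0.20 (-0.29 level-adjusted). With each gene averaged over its probe sets it was 0.39 (0.07 level-adjusted). Akirin2, which carries proteasomes into the nucleus, was the highest with 7.53 in 2RH30 and 5.99 in 2RS30, a difference of 1.54 (1.26). Nfe2l1, the factor that restores proteasome gene expression when the proteasome is inhibited, had 7.31 in 2RH30 and 7.62 in 2RS30, a difference of -0.31 (-0.70), and its other probe sets gave -0.03 and 0.79. Nfe2l2, the factor of the antioxidant response, had 7.68 in 2RH30 and 7.58 in 2RS30, a difference of 0.10 (-0.31). Ngly1, the enzyme that processes the Nfe2l1 protein, was dim, with 3.61 in 2RH30 and 4.92 in 2RS30. Of the genes that bring substrates to the proteasome, 12 of 13 were measured and 10 were above 0, with a median of 0.70 (0.29). Vcp, the ATPase that pulls proteins out of membranes and complexes, was the highest as deposited with 8.82 in 2RH30 and 7.55 in 2RS30, a difference of 1.27 (0.80). Level-adjusted, Ubqln4, a shuttle factor, was above it at 0.85. Rad23b, a shuttle factor, was the lowest with 6.78 in 2RH30 and 6.88 in 2RS30, a difference of -0.10 (-0.39). Its other probe set, used when those with an x, s or a suffix were left out, gave 1.66. Of 6 ubiquitin and ubiquitin-activating enzyme genes, 2 were measured. Uba1 differed by 0.54 (0.09) with 8.28 in 2RH30 and 7.74 in 2RS30. Uba6 had 7.92 in 2RH30 and 6.86 in 2RS30, a difference of 1.06 (0.68), but its mean over 4 probe sets was -0.52.

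**Figure D4:**
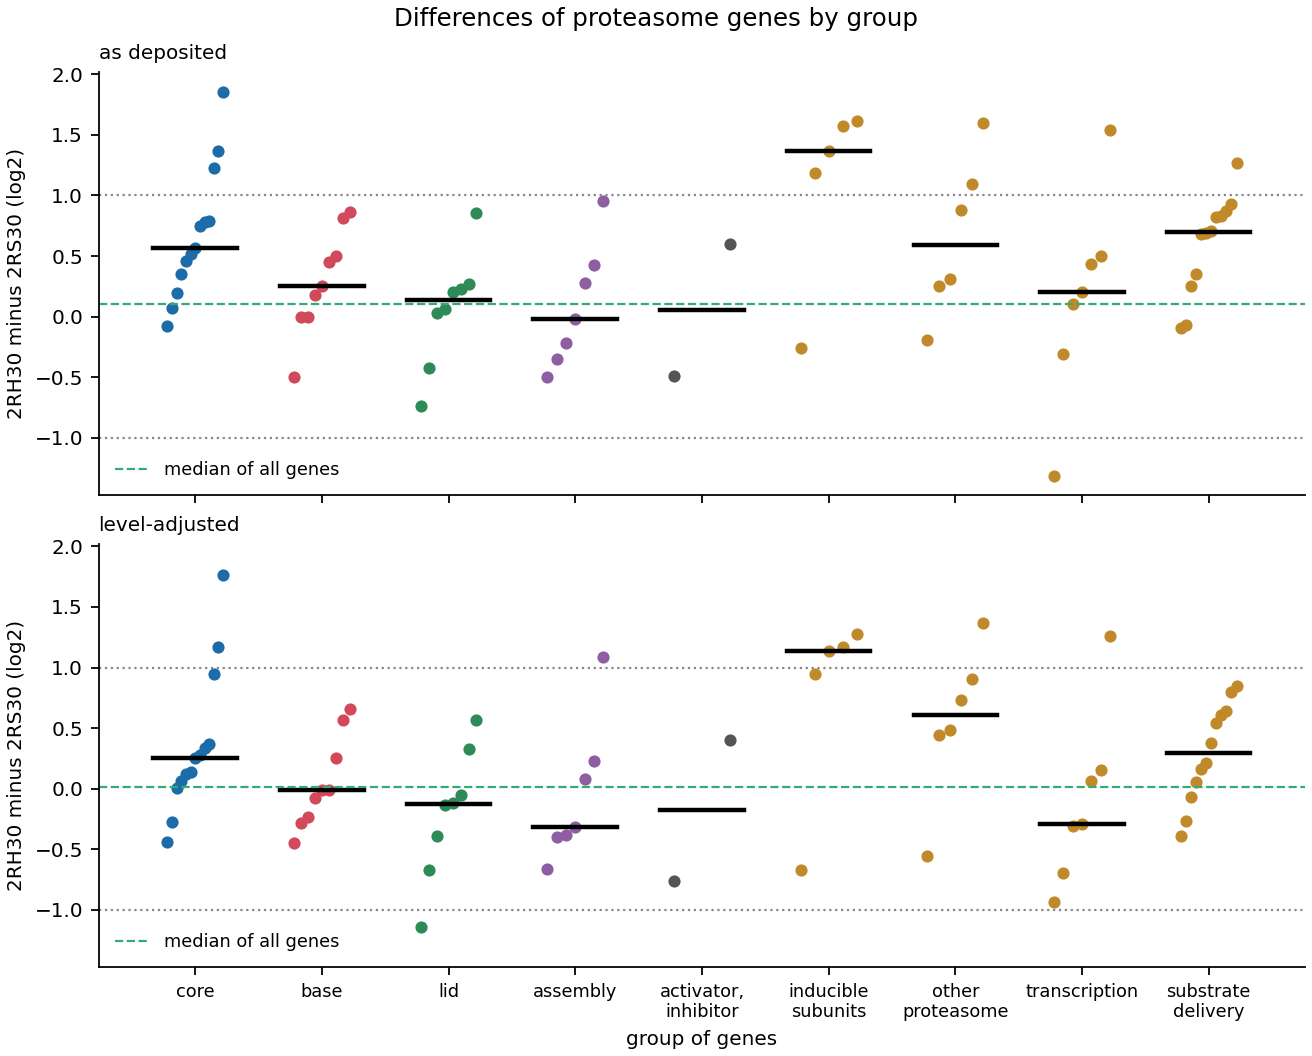
Difference between 2RH30 and 2RS30 (log2), as deposited (top) and level-adjusted (bottom), with 1 point per gene for the 5 groups of constitutive proteasome genes, the inducible subunits and the lists of other proteasome genes, transcription regulators and substrate delivery. Black bars are medians, dotted lines mark 2-fold and the dashed line is the median of all genes. The core lies highest of the constitutive groups on both scales, and 4 of 5 inducible subunits lie above the 2-fold line as deposited.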

How the data were processed

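Adrenal medulla RNA of 6 rats was combined into 1 pool, and 1 array was run, for each group. The deposited values are log2 levels of probe sets, the scale being read from their range. The submitters' processing notes name Affymetrix Expression Console without a version, and the methods describe the deposited values as quantile-normalized, but the spreads of the arrays differ. The methods name GCRMA in Partek for the normalization in the study. Whether it made the deposited values is not stated.

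The 57 array controls among 31099 probe sets were left out. Of the other 31042, 20826 name 1 gene in the platform annotation, 436 several and 9780 none, and 20758 of the single-gene ones were matched to RefSeq by gene number. Level adjustment subtracted a lowess curve (fraction 0.3, 3 iterations). With 1 array per group, no model was fitted, and that number limits the precision of all values. The method was tested on simulated data. The members and lists were chosen with earlier results of these data known. Genes named with their values were the highest and lowest of each group, those past 2-fold on either scale, the catalytic subunits, ATPases, ubiquitin receptors, Psmd14, activators and inhibitor, genes whose probe sets that are not dim ranged by 1 or more, the inducible subunits and the highest and lowest gene that is not dim of each other list. Other members and genes were named after their values were seen. Alternatives were other scalings, probe set choices, filters and thresholds. Python 3.11.15, pandas 2.3.3, numpy 2.4.6, statsmodels 0.14.6 and matplotlib 3.10.9 were used.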

Additional observations from a re-analysis of the deposited data

How the results depend on the processing

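The limits are those of 1 array per group, a difference that runs with level and probe sets that disagree. No paired analysis was possible because 1 array stands for each group, and no pseudocount was varied because the values are logs. The setting that leaves out paralogs gave the same value, since none of those genes was measured. Centring each array on its median left every median of the groups and lists within 0.1. The median of all members, 0.27 as deposited, was 0.013 under quantile normalization and 0.0078 level-adjusted, also when averaged over probe sets. Under quantile normalization the medians were 0.27 for the core, -0.0284 for the base, -0.11 for the lid, -0.28 for the assembly factors, -0.18 for the regulators and 1.12 for the inducible subunits. Level-adjusted they were 0.26, -0.014, -0.13, -0.31, -0.18 and 1.14 in the same order. With each gene averaged over its probe sets, the regulators had 0.26 and the inducible subunits 1.19. With that mean and level adjustment together, an alternative chosen after seeing the data, the core had 0.14, the base -0.014, the lid -0.13, the assembly factors -0.31 and the inducible subunits 0.95. The regulators then had 0.12, near the core and opposite in sign to their -0.18 with level adjustment alone. At least 2-fold lower was 1 member under quantile normalization and level adjustment (Psmd7) and 1 with the mean over probe sets (Psmc6), against 0 as deposited. At 1.5-fold, 11 were higher and 1 lower, and at 3-fold 1 was higher, against 3 at 2-fold. Psmb5 reversed to -0.26 with the mean over its probe sets and to -0.13 with level adjustment as well, and Uba6 to -0.52 and -0.45. Why the probe sets of these genes disagree was not tested. Of the 39 members, 29 were above 0 as deposited, 21 under quantile normalization and 20 level-adjusted. Only the 8 members with several probe sets could move with the choice of probe set, and Psmd7 went to 0.09 and Psmc6 to -1.40 when averaged over theirs.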
